A study of Mus musculus with 4 samples.

Results

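The genes Jph2 and Ryr2 were followed in RNA that was captured from whole mouse hearts with an antibody against N4-acetylcytidine (ac4C), a modified RNA base made by the acetyltransferase NAT10. All hearts came from C57BL/6 mice with the treatment label HFD+STZ+Exercise, so diet, drug and exercise were shared by both groups. The 4 libraries fell into 2 from NAT10 knockout hearts and 2 from control hearts. The labels name neither the kind of knockout nor the cells it acts in, and they give no age. The deposited table held counts for 558 distinct regions, and 6 of these overlapped Jph2 or Ryr2. They were taken by gene name and not by their values. Jph2 had 4 regions and Ryr2 had 2, and none of the 6 was assigned to any other overlapped gene. The regions of each gene are lettered by their mean level, Jph2-A to Jph2-D and Ryr2-A to Ryr2-B, since the table gives no positions of their own.

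Both genes act at the cardiac dyad, the cleft where the sarcolemma of a transverse tubule faces the junctional sarcoplasmic reticulum. Ryr2 encodes the ryanodine receptor of heart muscle, the channel that releases calcium from the sarcoplasmic reticulum when calcium enters through L-type channels. Jph2 encodes junctophilin-2, which binds the sarcolemma with its membrane occupation motifs and is anchored in the sarcoplasmic reticulum by its tail, so that it holds the cleft together.

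The coding sequences of the genes differ in cytidine, the base that is acetylated. In the GENCODE annotation of GRCm38 the Jph2 coding sequence has 2088 bases, of which 32.9% are C, a higher share than in 93.9% of 21864 mouse coding sequences. The Ryr2 coding sequence has 14898 bases, of which 23.4% are C, against a median of 25.7% over all coding sequences. In maps of human cells, ac4C has been reported in stretches where C recurs with 2 other bases between. The motif CNNCNNCNNC, with N for any base, was therefore counted on the sense strand, with overlapping matches counted each. It occurred 47 times in Jph2 and 99 times in Ryr2, or 22.5 and 6.65 times per 1000 bases, against a median of 7.41 over all coding sequences and 8.71 over the 297 genes of the table that had a coding sequence. Since 94.6% of all coding sequences hold the motif, its presence alone sets neither gene apart. The longest such run in each gene is printed here in its surroundings, 5′ to 3′, with the recurring C in capitals.
Jph2: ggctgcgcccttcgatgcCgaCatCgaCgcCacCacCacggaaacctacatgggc
Ryr2: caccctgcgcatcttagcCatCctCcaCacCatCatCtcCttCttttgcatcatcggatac

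The Jph2 run has 7 recurring C and lies in exon 3 of 7 on the minus strand of chromosome 2, within chr2:163375894-163375948 (GRCm38), and the Ryr2 run has 9 and lies in exon 94 of 105 on the minus strand of chromosome 13, within chr13:11587228-11587288. A run at least as long is found in 48.3% of the 3355 coding sequences that are 0.8 to 1.2 times as long as that of Jph2, and in 38.5% of the 65 within that range of Ryr2. Without region positions in the table, whether the counted regions cover these runs could not be tested. The sequences describe the genes and not the measured regions.

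The comparison of the groups asked whether the captured RNA of these genes differed between NAT10 knockout and control hearts. Levels were scaled over the captured regions of each library, so they are relative, and a change shared by all regions would not show. One Jph2 region, Jph2-C, was lower in knockout hearts, at 0.597 times its control level, a call that was lost in 6 of 13 alternative settings, among them 3 of the 4 fits that left out 1 library. Of the 13 settings, the one with no filter could not differ from the main fit, because the filter removed 0 regions. The replicate block, which also lost the call, rested on replicate numbers that were not taken to pair libraries. The other 3 Jph2 regions and both Ryr2 regions did not pass the test, so 1 of the 6 regions passed, where 3.94% of all 558 regions did. The regions of each gene gave fitted values on both sides of 0, and neither gene total passed. Uncaptured RNA was not analysed here, so RNA abundance and ac4C cannot be told apart, and nor can fewer heart muscle cells and less RNA per cell.

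The most abundant Jph2 region was Jph2-A. It had 201 and 201 normalised counts in the knockout libraries, against 255 and 213 in the control libraries (TMM-scaled CPM, where the counts in the table stand for the library). Both knockout values lay below both control values. The means were 201 ± 0.0423 in knockout and 234 ± 30.2 in control (SD, n = 2 each), and an SD from 2 libraries can be very small by chance.

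Jph2-B stood close to it, with 181 and 179 normalised counts in knockout and 219.7 and 201 in control. Here too the groups did not overlap, and the means were 180.1 ± 1.95 in knockout and 210.3 ± 13.3 in control (SD, n = 2 each). The log2 fold changes of knockout over control were -0.22 ± 0.17 (SE) for Jph2-A and -0.22 ± 0.18 for Jph2-B, with p of 0.545 and 0.559 after Benjamini-Hochberg adjustment over all 558 regions (edgeR, quasi-likelihood F). Their 95% intervals ran from -0.57 to 0.14 and from -0.59 to 0.15, so a fall of up to that size or a small rise was not resolved.

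Jph2-C had 97.2 and 107 normalised counts in knockout, against 190.6 and 150.0 in control. The underlying counts were 106 and 68 in knockout and 118 and 103 in control. The means were 102 ± 6.68 in knockout and 170.3 ± 28.7 in control (SD, n = 2 each), and the groups were separated by more than the spread within either. The log2 fold change was -0.74 ± 0.22 (SE), with a 95% interval from -1.18 to -0.31 and an edgeR adjusted p of 0.0407. Of all 558 regions, 22 passed, which is 3.94%, with 9 lower in knockout (1.61%) and 13 higher (2.33%). Jph2-C had the largest p of these 22, and 18 regions had a log2 fold change as low or lower.

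The call for Jph2-C did not hold in each alternative setting. A fit without 1 library leaves 1 library in that group, so a call lost there cannot tell a smaller difference from fewer libraries. When knockout replicate 1 was left out the log2 fold change was -0.67 (edgeR adjusted p = 0.295), and it was -0.81 when knockout replicate 2 was (adjusted p = 0.0933), so the call ended in both cases. It also ended when control replicate 1 was left out (-0.57, edgeR adjusted p = 0.302) and held when control replicate 2 was (-0.92, adjusted p = 0.0242). Scaling to the table totals alone ended it as well (-0.60, adjusted p = 0.644), as did the DESeq2 Wald test (-0.76, adjusted p = 0.372).

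Jph2-D, the least abundant of the 4, was the one Jph2 region with a fitted value above 0. It had 104 and 90.9 normalised counts in knockout, against 100.1 and 81.5 in control, and the groups overlapped. The means were 97.7 ± 9.59 in knockout and 90.8 ± 13.2 in control (SD, n = 2 each), a log2 fold change of 0.12 ± 0.25 (SE, edgeR adjusted p = 0.824). Without control replicate 2 that value was -0.033.

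In Ryr2 the regions also differed in direction. Ryr2-A, which the table lists with Ryr2 itself, had 225 and 265 normalised counts in knockout, against 338 and 233 in control. The control libraries lay far apart and enclosed both knockout values. The means were 245 ± 28.6 in knockout and 285 ± 74.0 in control (SD, n = 2 each), and the log2 fold change was -0.23 ± 0.18 (SE, edgeR adjusted p = 0.535). Without control replicate 1 it was 0.058, and without control replicate 2 it was -0.49, so the sign followed which control library was kept.

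Ryr2-B had 221 and 260.3 normalised counts in knockout, against 173 and 183 in control. Both knockout values were above both control values. The means were 241 ± 27.8 in knockout and 178 ± 7.50 in control (SD, n = 2 each), which is 1.34-fold higher in knockout. The log2 fold change was 0.42 ± 0.18 (SE) with a 95% interval from 0.06 to 0.78 before adjustment. It did not pass over all regions in the edgeR fit (unadjusted p = 0.0240, adjusted p = 0.172). It was above 0 in all 13 alternatives, from 0.31 to 0.55, without passing in any, and the alternative with no filter equals the main setting.

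The table lists Ryr2-B with another gene, Gm47494, although Ryr2 is the one gene it gives as overlapped. In the GRCm38 annotation Gm47494 spans 3487 bases on the same strand as Ryr2, and it lies within intron 16 of Ryr2, which is 13295 bases long. The table puts Ryr2 on chromosome 13 from 11567988 to 12121831 and Gm47494 from 11833134 to 11836620. Both starts are 14886 bases above those of GRCm38, which is the build named mm10 in the submitters' processing notes. The span of Ryr2 is 553844 bases in both. The table's positions are thus not those of GRCm38, and no label or header names another build. All 4 Jph2 regions were listed with Jph2, which the table places on chromosome 2 from 163178162 to 163239869. The GRCm38 positions of the Jph2 run given above lie outside that span, so they cannot be set beside the table's positions as they stand. A listed gene that was not among the overlapped ones was common, in 185 of the 493 regions that overlapped a gene (37.5%). Whether the Ryr2-B counts come from spliced Ryr2, from unspliced Ryr2 or from a transcript such as Gm47494 was not tested, and no label says whether reads were counted by strand.

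Of the 6 regions, 4 had groups that did not overlap, 3 lower and 1 higher in knockout. Over the table this held for 47.5% of regions, 22.2% lower and 25.3% higher, so for regions of this kind it was common. An exact permutation test of 2 against 2 libraries cannot give a two-sided p below 0.333, so no region was tested that way. The median log2 fold change of the 4 Jph2 regions was -0.22, against 0.01 over all 558 regions.

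**Figure D1:**
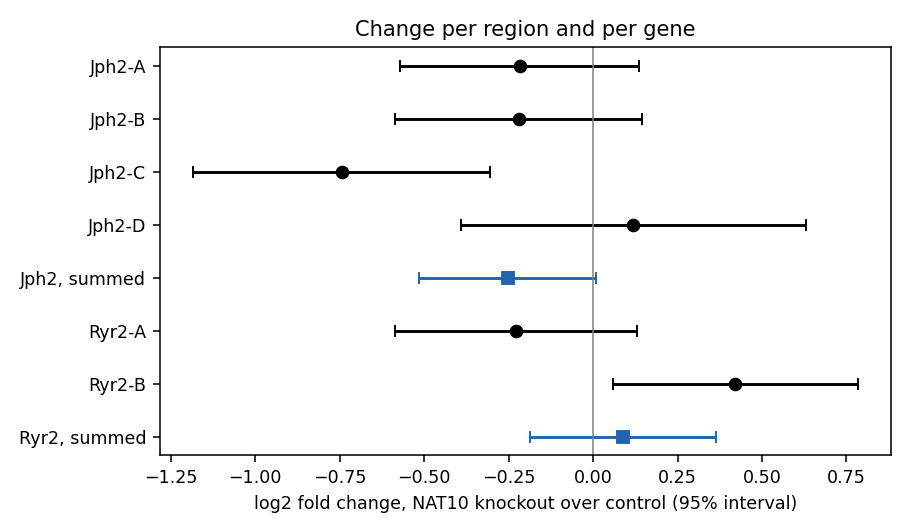
Log2 fold change of NAT10 knockout over control (horizontal axis) with its 95% interval for each region (circles) and for the counts summed per gene (squares), from edgeR fits on 2 libraries a group. The interval of Jph2-C runs from -1.18 to -0.31 and that of Ryr2-B from 0.06 to 0.78, both before adjustment for the number of regions, and the other intervals include 0.

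Summed over its regions, Jph2 had 720.2 and 744 normalised counts in knockout, against 951 and 793 in control, on the scale of counts summed per gene. The knockout values lay below the control values, with means of 732 ± 16.7 in knockout and 872 ± 112 in control (SD, n = 2 each). The log2 fold change was -0.25 ± 0.13 (SE), from -0.52 to 0.01, and did not pass (edgeR adjusted p = 0.268 over 388 genes, of which 4.9% passed, 2.06% lower and 2.84% higher). Without control replicate 2 the Jph2 sum stood at -0.39 and passed (edgeR adjusted p = 0.0308).

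The Ryr2 sum had 549 and 677 normalised counts in knockout and 634 and 512 in control, and the groups overlapped. Its means were 613 ± 90.2 in knockout and 573 ± 86.3 in control (SD, n = 2 each), with a log2 fold change of 0.09 ± 0.14 (SE), from -0.19 to 0.36 (edgeR adjusted p = 0.745). That sign was negative with upper-quartile factors and without 2 of the libraries in turn, control replicate 2 and knockout replicate 2. The table gives no lengths of the regions, so levels were not compared between Jph2 and Ryr2.

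Because all regions of a gene are counted in the same library, the share of the gene's counts that a region held does not depend on scaling between libraries. Jph2-C held 16.6% of the Jph2 counts in knockout replicate 1 and 18.5% in knockout replicate 2, against 24.9% in control replicate 1 and 23.3% in control replicate 2. The Jph2-D share moved the other way, with 17.9% and 15.8% in knockout and 13.1% and 12.6% in control. The shares of a gene add up to the whole, so a fall in one raises others, and the level of Jph2-D itself overlapped between groups. Jph2-A held between 33.0% and 34.8% in all 4 libraries and Jph2-B between 28.7% and 31.2%. Jph2-C held about as many counts as Jph2-D in knockout, at 0.930 and 1.17 times, and more in control, at 1.90 and 1.84 times.

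The counts behind these shares were few. The Wilson 95% interval of the Jph2-C share ran from 14.0% to 19.7% and from 14.8% to 22.8% in the knockout libraries, and from 21.2% to 29.0% and from 19.6% to 27.4% in the control libraries. The intervals of both knockout libraries overlapped that of control replicate 2, and that of knockout replicate 2 also overlapped that of control replicate 1. These intervals cover counting error only. They take the counts as independent, while most counts below 200 were even numbers, so they may be too narrow.

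In Ryr2 the counts were split nearly evenly in both knockout libraries, where Ryr2-B held 49.6% and 49.6%. In control Ryr2-B held 33.9% (Wilson 95% interval 28.9% to 39.2%) and 44.1% (38.4% to 49.9%). The ratio of Ryr2-A to Ryr2-B was 1.02 in each knockout library, against 1.95 and 1.27 in the controls. The knockout interval of 45.2% to 54.0% in replicate 1 lay above that of control replicate 1 and overlapped that of control replicate 2. These intervals have the same limit as those of the Jph2 shares.

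**Figure D2:**
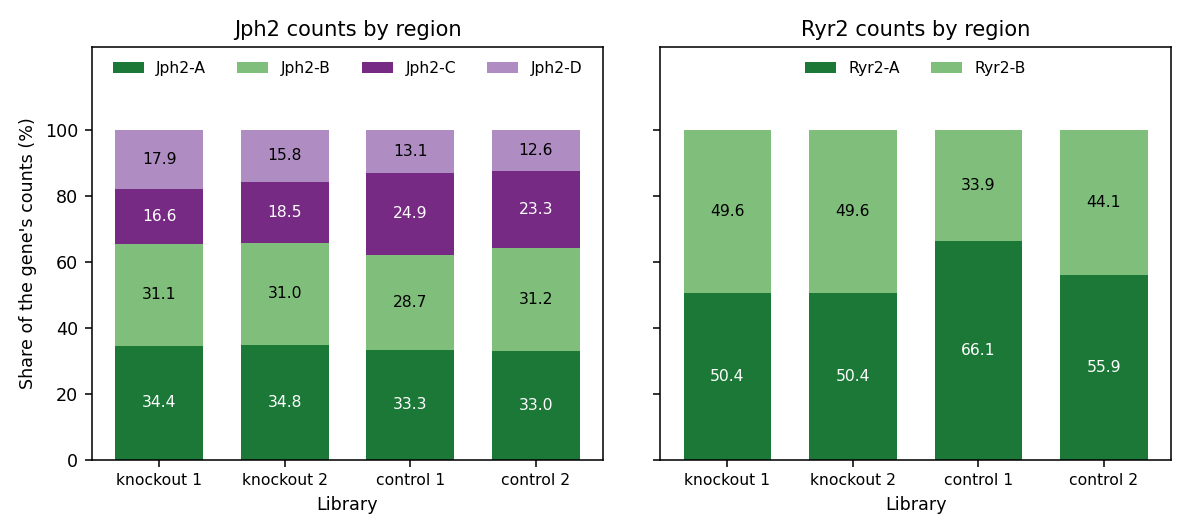
Share of the counts of Jph2 (left) and Ryr2 (right) held by each region, in percent, in the 2 knockout and the 2 control libraries. The Jph2-C share is 16.6% and 18.5% in knockout against 24.9% and 23.3% in control, and the Ryr2-B share is 49.6% and 49.6% in knockout against 33.9% and 44.1% in control.

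Whether the regions of a gene changed unequally was tested with edgeR's test for differential use of regions, over the 52 genes or sets of overlapping genes with at least 2 regions. By the gene-wise F form, Jph2 had an unadjusted p of 0.0438 and Ryr2 of 0.0285, ranks 4 and 2 of the 52, and an edgeR adjusted p of 0.458 each. By the Simes form the unadjusted p was 0.154 for Jph2 and 0.124 for Ryr2, with an adjusted p of 0.998 each. The F form passed 1 of the 52 (1.92%) and the Simes form 0, with 4 and 1 at an unadjusted p below 0.05. Unequal change among the regions was thus not shown for either gene.

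The size of the spread is given as a description. Fitted values spanned 0.86 on the log2 scale over the Jph2 regions, the widest of the 4 genes with 4 regions, whose median was 0.62. They spanned 0.65 over the Ryr2 regions, the rank of 9 among 37 genes with 2 regions, whose median was 0.33. Without control replicate 1 the span of Ryr2 was 0.32, and without control replicate 2 it was 0.94 (edgeR F form, adjusted p = 0.790 and 0.0508), so its size followed which control library was kept.

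**Figure D3:**
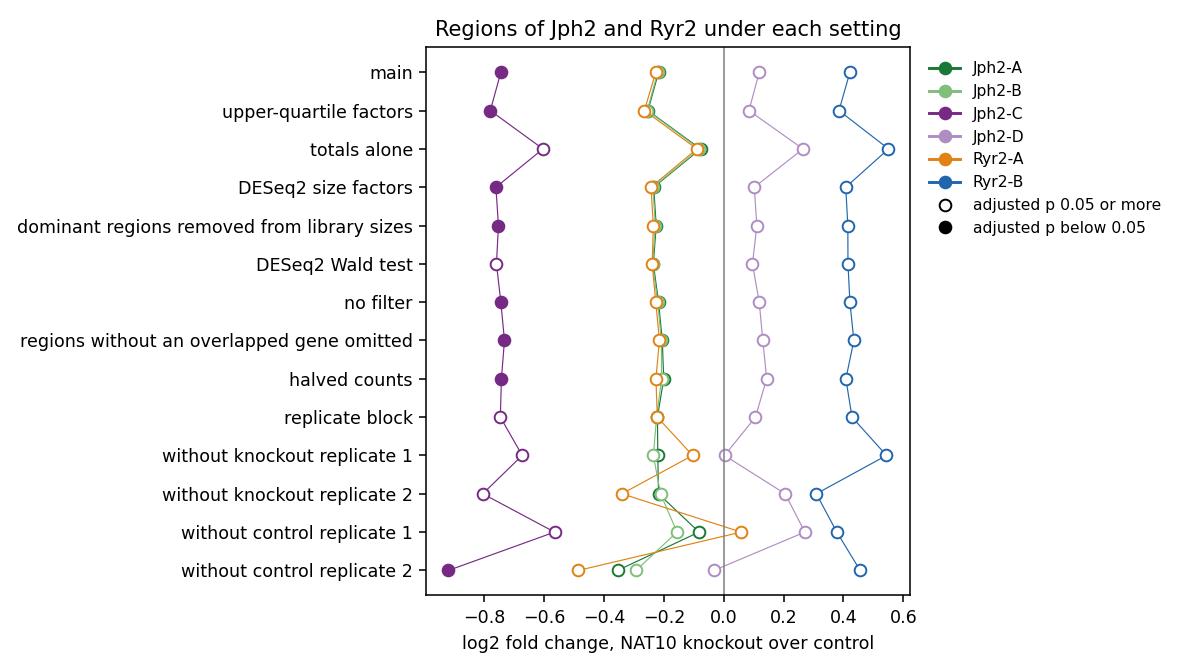
Log2 fold change of NAT10 knockout over control (horizontal axis) for each of the 6 regions under the main setting and 13 alternatives (rows). Filled circles have an adjusted p below 0.05. Only Jph2-C has any, in the main setting and 7 of the 13 alternatives, of which the one with no filter equals the main setting because the filter removed 0 regions, and Ryr2-B is above 0 in each row.

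The authors' deposited table also gives a log2 fold change, positive where control is higher, as in 24 of 24 regions that were over 2-fold apart. In the authors' deposited table Jph2-C has 0.24 (p = 0.405) and Ryr2-B has -0.67 (p = 0.0561), the same directions as in the edgeR fit. For Jph2-A the authors' deposited table has -0.80 (p = 0.0300) and for Jph2-B -0.21 (p = 0.121), which is higher in knockout and opposite to the edgeR fit. In the authors' deposited table Jph2-D has -1.34 (p = 0.0678) and Ryr2-A has 0.31 (p = 0.465), so that 4 of the 6 directions were shared with the edgeR fit. All 6 have a q-value of 1 in the authors' deposited table, where 27.2% of regions have a p below 0.05 and 429 of 558 are given as higher in knockout. No label says how those values were scaled.

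Other genes of calcium release and reuptake were taken from a list of 55 symbols, and 12 of them were measured as genes. By edgeR 1 of the 12 was higher, 0 were lower and 11 did not pass, where 2.84% of all 388 genes were higher and 2.06% lower, so the count is near that of all genes. The 12 had a median log2 fold change of -0.08 against 0.05 over all genes. The one was Pln, the inhibitor of the calcium pump, in a region it shares with Cep85l and Gm47644. That region had 4712 and 4911 normalised counts in knockout and 2911 and 3009 in control, and it rose by 0.70 ± 0.15 (SE, adjusted p = 0.00378). The list had 18 regions, of which 2 were higher, where 2.33% of all 558 regions were. The second was 1 of the 7 regions of the calcium pump gene Atp2a2, with 2204 and 2192 in knockout and 1615 and 1596 in control (0.45 ± 0.12, edgeR adjusted p = 0.0272), while the Atp2a2 sum stood at -0.01 ± 0.17. Both region calls ended when either control library was left out (adjusted p from 0.165 to 0.282), and the gene call of Pln ended without control replicate 1 (edgeR adjusted p = 0.138).

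The partners of the release channel in the sarcoplasmic reticulum did not pass. Casq2, calsequestrin, which stores calcium beside the channel, had 159 and 154 normalised counts in knockout and 173 and 175 in control on the gene scale (-0.15 ± 0.22, edgeR adjusted p = 0.738). Tmem38a, a potassium channel of the same membrane, had 179.8 and 141 in knockout and 140.5 and 222 in control (-0.16 ± 0.22, adjusted p = 0.709). Trdn, triadin, which links calsequestrin to the channel and was singled out after its value was seen, had 58.8 and 64.7 in knockout and 36.1 and 28.7 in control (0.92 ± 0.53, edgeR adjusted p = 0.341).

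Among the remaining listed genes of highest level, Prkaca, the catalytic subunit of protein kinase A that phosphorylates the channel, stood at 0.47 ± 0.23 (SE, edgeR adjusted p = 0.201) in a region shared with Gm56840. The mitochondrial channel gene Vdac1 stood at 0.12 ± 0.15 (adjusted p = 0.665).

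The genes whose levels over the 4 libraries were nearest to those of Jph2, by the root mean square difference of centred log2 values, were Psap at 0.02, the pair Gm10138 and Ivns1abp at 0.03 and Nfe2l1 at 0.04, against a median of 0.27 over 387 other genes. Nearest to Ryr2 were Gatd3a at 0.06, the pair Mpc1-ps and Zfp839 at 0.08 and Ldhb-ps at 0.09. Ryr2 itself was 0.19 from Jph2, so the paired dyad genes were not among each other's nearest, with Ryr2 at rank 107 for Jph2 and Jph2 at rank 99 for Ryr2. With 4 libraries such likeness is a description.

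The library facts that touch these values are few. Counts in the table summed to 920818 and 693922 in knockout and 674687 and 686323 in control, and the 2 most abundant regions held 40.7% to 43.8% of them. Of counts below 200, 77.9% to 83.3% were even numbers, as were 17 of the 24 counts of the 6 regions, which ranged from 56 to 245, so they cannot be read as independent molecules. Of 8 cardiomyocyte markers 6 were measured, with summed levels of 91586 and 100341 in knockout and 94400 and 93921 in control. Of 5 atrial markers 2 were measured, Nppa and Stard10, with sums of 547 and 586 in knockout and 2577 and 2577 in control. These sums do not give Nppa and Stard10 apart, and Myl7, Sln and Myl4 were not measured. Whether the amount of atrial tissue differed was not tested. The part of the difference between these sums in the values of Jph2 and Ryr2 was not tested either. No endothelial or fibroblast marker was measured here. Rgs5 was the single marker measured for smooth muscle and pericytes (128 and 162 in knockout, 96.3 and 158 in control), Cd74 for immune cells (127 and 133 in knockout, 60.2 and 104 in control), Hba-a2 for red cells (66.7 and 24.3 in knockout, 40.1 and 55.5 in control) and Ckm for skeletal muscle (834 and 825 in knockout, 969 and 833 in control). No region of the table had Nat10 as its overlapped gene, so the targeted gene gave no check of the labels.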

How the data were processed

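RNA from whole hearts was measured in 4 libraries as counts per region. The authors deposited whole-number counts, per the file headers, with no normalisation that the headers name. The labels' protocols give Trizol extraction, ribosomal RNA removal and 1 ug of total RNA per library, and mm10, Salmon and FastQC are named in the submitters' processing notes, with no versions or roles. The authors' log2 fold change, p-value and q-value stand in the same deposited table, per the file headers. How regions were called and whether strand was used was not stated in any label or header.

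The table's 652 lines were reduced to 558 distinct regions, 65 of them without an overlapped gene. Counts were fitted over all regions with edgeR 4.0.16 in R 4.3.3 (filterByExpr, which removed 0 regions, TMM factors, robust dispersion, glmQLFTest), and a region passed at a Benjamini-Hochberg adjusted p below 0.05. The SE is the log2 fold change divided by the root of F. Counts summed per gene were fitted alike, and unequal regions were tested with diffSpliceDGE. The steps were tested on simulated data. The alternatives were other scalings, DESeq2 1.42.0, no filter, halved counts, leaving out regions with no overlapped gene, a replicate block and each library left out. All regions of both genes are named, and of the list those past a test and the 6 others of highest level, of which 2 are not reported here. The members and lists were chosen with earlier results of these data known. No label ties a library to an animal of its own, so p-values reflect only how far these samples lie apart, and that may be technical. Replicates differed by more than counting noise (chi-square over its degrees of freedom, 16.3 in knockout and 4.51 in control).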

Additional observations from a re-analysis of the deposited data

How the results depend on the processing

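Values were recomputed over 13 other settings, or 12 for the spans of the regions and 14 for the count of regions. Of 142 recomputed values, 124 kept their direction and their side of the threshold (or, for the count of regions, lay within 1.5 times). A span cannot lie below 0, so its direction could not change and only its side of the threshold was open. The causes of the changes were not tested. Jph2-C lost its call with scaling to the table totals alone (-0.60, adjusted p = 0.644), the DESeq2 Wald test (-0.76, adjusted p = 0.372) and the replicate block (-0.75, adjusted p = 0.345), and with single libraries left out it ranged from -0.92 to -0.57. The sign of the Ryr2 sum turned to -0.014 with upper-quartile factors and ranged from -0.075 to 0.25 with single libraries left out. Leave-one-out ranges were -0.49 to 0.058 for Ryr2-A, -0.033 to 0.27 for Jph2-D and -0.39 to -0.12 for the Jph2 sum. The count of regions past the threshold, 22, was 8 with totals alone, 5 with the DESeq2 Wald test, 1 with the replicate block and 13 to 37 with single libraries left out. Totals alone moved the median of all regions to 0.15, a shift of 0.14. The deviations of same-numbered libraries had a weak negative correlation across regions (-0.16), so the numbers were not taken to pair libraries, and the call lost under the block is no measure of the effect. With crossed numbers, chosen after seeing the data, 42 regions passed. Leaving out the filter could change no region, since it removed 0, and halved counts left each call of the 6 regions as it was.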
